A study of Homo sapiens with 6 samples.

Results

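Interferon-stimulated genes (ISGs) are the genes that a cell switches on when type I interferon binds the receptor formed by IFNAR1 and IFNAR2. The receptor-bound kinases JAK1 and TYK2 phosphorylate STAT2, which joins IRF9 in the complex ISGF3, and this complex binds the interferon-stimulated response element (ISRE) near the start of its targets. Their products block viral entry, degrade or sequester foreign RNA, tag proteins with ISG15 and amplify the signal. Many ISGs also have a basal level in tumour cells without added interferon.

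A set of 51 antiviral ISGs and components of their signalling pathway was followed here. The members were the rows of the deposited gene table whose symbol is on the list, and all 51 were found among its 38637 genes. The cells were OVCAR8, a human ovarian cancer cell line, treated for 72 h with DMSO, the vehicle, or with 2 nM pladienolide B, a small molecule that binds SF3B1 and blocks the recognition of the branch point by the spliceosome. RNA was sequenced in 3 samples of each group, so that all values come from 1 cell line, 1 dose and 1 time. The comparison addresses whether inhibition of SF3B1 changed the interferon program of the cancer cells themselves. Nothing in the sources says whether the 3 samples of a group were separate cultures, so the p-values measure the spread between these samples only.

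The samples held 22621338 to 26130882 reads on genes. Values are given as adjusted reads, which are reads per gene brought to a common library size by the authors. That size is not the plain total of reads. The adjusted reads summed to 24588827 to 25206393 in DMSO samples and 24088298 to 24331045 in pladienolide B samples. DMSO replicate 2 stood apart from the other DMSO samples. The chi-square per degree of freedom of its differences from them was 7.82 and 7.74, against 2.01 between DMSO replicates 1 and 3 and 3.21 to 4.82 between pladienolide B replicates, where counting error alone gives 1. Of 9 epithelial carcinoma markers, all passed the filter on low values, and their summed level was 75700 to 81900 adjusted reads with DMSO and 77500 to 92800 with pladienolide B. KRT8, KRT18, KRT7 and PAX8 were abundant. Of 9 leukocyte markers 2 passed the filter, and the sum of the list was 65.5 to 93.9 with DMSO and 60.1 to 77 with pladienolide B. PTPRC had at most 2 reads in a sample, and CD3E and CLEC4C had 0 in all samples. The endothelial list summed to 45.8 to 71.5 and 59.7 to 90.2, with 2 of 3 markers tested. For fibroblast markers, 3 of 6 passed the filter and the sum was 6960 to 7130 with DMSO and 5840 to 6560 with pladienolide B, nearly all of it COL1A1, while DCN had at most 2 reads in any sample. SF3B1, whose protein the drug binds, had 9787, 10387 and 10083 adjusted reads in DMSO and 12345, 12892 and 12289 in pladienolide B. It was higher in all treated samples, by 0.31 on the log2 scale (SE 0.04, adjusted p = 7.5e-06 by limma). This RNA level does not check the treatment labels, because the drug acts on the protein.

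The DNA that ISGF3 reads is short, and its matches near the members are shown here because the element is what the pathway is known to act through. Promoter windows of 300 bases, from 250 bases upstream to 50 bases into the gene, were taken from RefSeq (GRCh38.p14), and 41 of the 51 members had an entry. The ISRE was searched as GAAANNGAAA on both strands, where N is any base, and it occurred in 1195 of 27305 genes with a window, 4.38%. Among the members it was found in 26 of 41, 63.4%. The gamma-activated site, searched as TTCNNNGAA, reads the same on both strands. It occurred in 11 of 41 members, 26.8%, and in 9.38% of all genes. Stretches of 30 bases around the first match of members described in this text are given 5′ to 3′ on the strand of the gene, with the ISRE in capitals. TTTCNNTTTC is the same element on the opposite strand. The first 6 genes fell in pladienolide B, IFITM1 rose, the next 5 did not pass the test and the last 2 were too low to test.
OAS3: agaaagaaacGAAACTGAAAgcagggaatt
GBP1: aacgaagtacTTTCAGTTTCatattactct
IFI44: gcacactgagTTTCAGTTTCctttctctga
ISG20: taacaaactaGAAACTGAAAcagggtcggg
IFIT1: tagTTTCACTTTCcccTTTCGGTTTCccta
IFI27: cagTTTCGGTTTCctgGAAAATGAAAccta
IFITM1: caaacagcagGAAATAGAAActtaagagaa
ISG15: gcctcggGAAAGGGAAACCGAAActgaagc
IFIT3: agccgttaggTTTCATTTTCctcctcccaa
IFITM3: gGAAAAGGAAActgttgaGAAACCGAAAct
BST2: tttctggGAAACTGAAACTGAAAacctaat
LGALS3BP: gtggtttctgGAAATCGAAAgtagactctt
CXCL10: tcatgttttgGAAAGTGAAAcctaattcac
IFI44L: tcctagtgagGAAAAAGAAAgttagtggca

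The stretch of OAS3 lies on the + strand at chr12:112938321-112938350, 153 to 124 bases before the start of the gene. That of IFIT1 is chr10:89392504-89392533 (+) and holds 2 elements side by side, and that of IFI27 is chr14:94110625-94110654 (+) and holds 1 element on each strand. In ISG15, at chr1:1013377-1013406 (+), and in BST2, at chr19:17405738-17405767 (- strand), 2 matches share a GAAA. GBP1 carries its element at chr1:89065316-89065345 (-), IFITM1 at chr11:313990-314019 (+) and CXCL10 at chr4:76023699-76023728 (-). The element thus occurred in genes of every outcome. It was present in 8 of the 12 members with a window that fell, 1 of the 4 that rose, 14 of the 19 that did not pass the test and 3 of the 6 that were too low to test. A match is a description of the letters and does not show that a factor was bound.

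**Figure D1:**
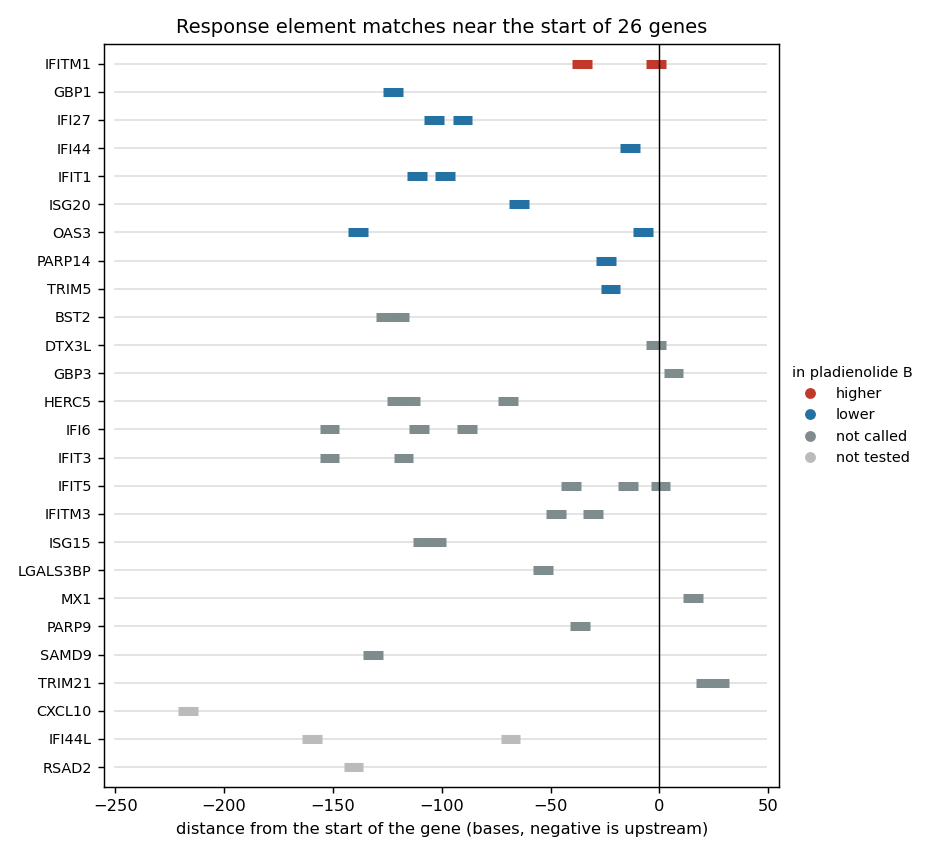
Position of ISRE matches, in bases from the start of the gene (x axis, negative is upstream), in the first window with a match of each of 26 members (rows). Grey lines mark the window and coloured blocks the matches, by outcome in pladienolide B. Most of the blocks lie upstream of the start. Only members with a match are drawn: 1 that rose, 8 that fell, 14 that did not pass the test and 3 that were not tested.

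Of the 51 members, 43 passed the filter on low values, and 22 of these changed with pladienolide B (limma, adjusted p under 0.05). The changes went mostly down: 17 members fell and 5 rose. Among all 16178 tested genes 47.6% were called, 22.4% higher and 25.2% lower, so the share of members called, 51.2%, was near the background, while 39.5% of the tested members were lower and 11.6% higher. The largest fall was that of OAS3, to 38.6% of the DMSO level, and the largest rise that of OASL, to 224%. These were also the only 2 of the 43 tested members that were both called and changed at least 2-fold. Of all tested genes, 3.93% were both called and changed by at least that much. The median log2 fold change of the 43 members was -0.07, against 0 for all tested genes, whose 5th and 95th percentiles were -0.72 and 0.65. When the recovered whole reads were tested with edgeR instead, the counts were again 5 higher and 17 lower, beside 47.8% of all tested genes, 23.0% higher and 24.9% lower. Without DMSO replicate 2 they were 4 and 15, and the median was -0.03. The number called higher was 3 without pladienolide B replicate 1 and 3 without pladienolide B replicate 3. Fewer cells that express a gene and less RNA of it per cell cannot be told apart in these bulk samples.

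The summed level of the 51 members was 36217 to 37324 adjusted reads with DMSO and 35614 to 36347 with pladienolide B. The ranges overlap, and most of the sum came from genes that did not pass the test. The values of the 2 groups did not overlap for 22 tested members, 4 of them higher and 18 lower in pladienolide B, where 26.4% and 28.8% of all tested genes were so separated.

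**Figure D2:**
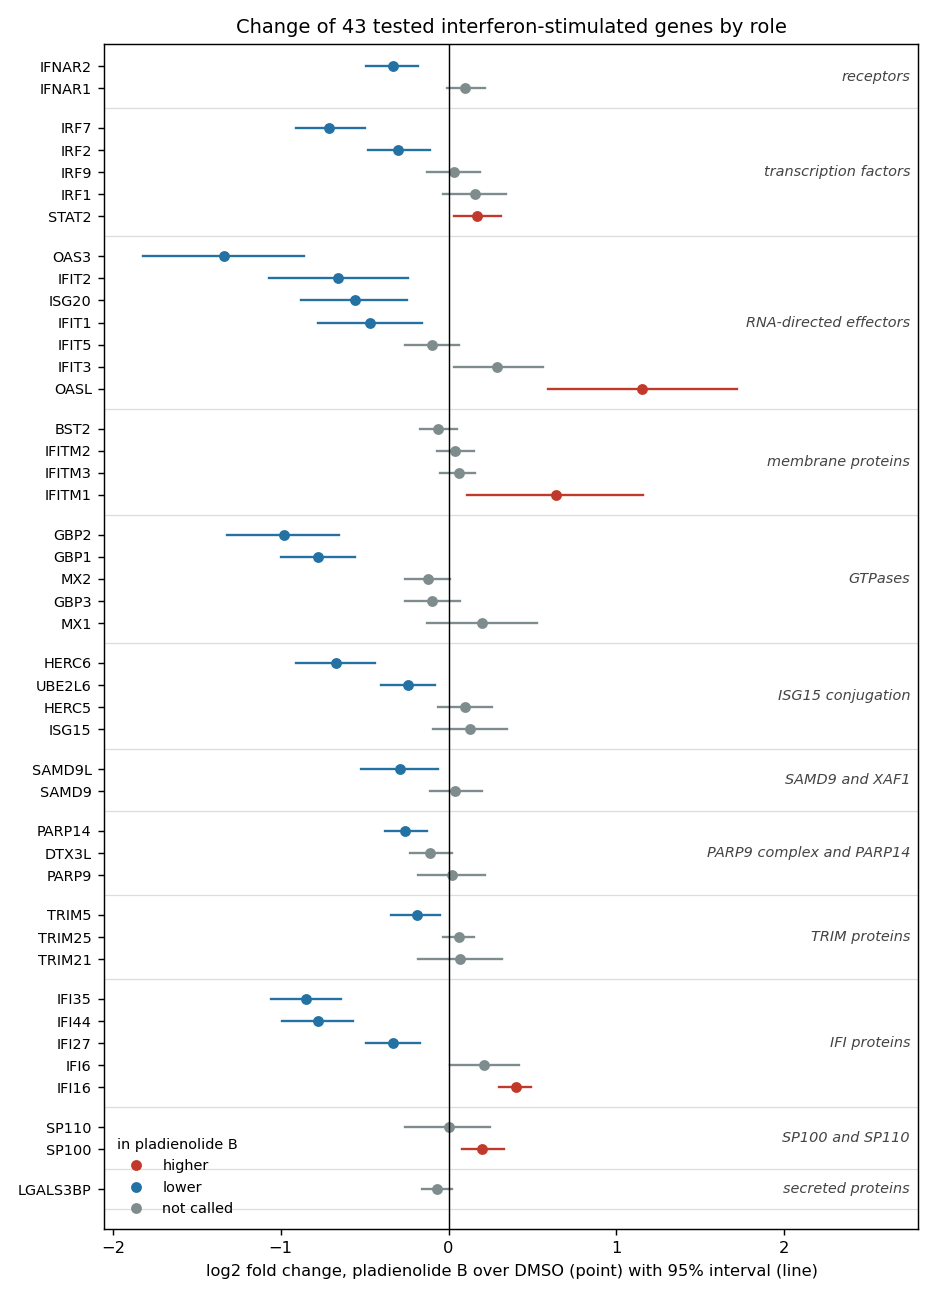
Change in pladienolide B relative to DMSO on the log2 scale (x axis, points) with its 95% interval (lines) for the 43 tested members, grouped by role (y axis). Red marks the 5 genes that rose, blue the 17 that fell and grey the 21 that did not pass the test, and the RNA-directed effectors hold both extremes, OAS3 at -1.34 and OASL at 1.15.

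At the top of the pathway, 1 of the 2 subunits of the receptor fell. IFNAR2, the subunit that binds interferon with high affinity, had 577, 619 and 594 adjusted reads in DMSO replicates 1 to 3 and 487, 494 and 442 in pladienolide B replicates 1 to 3. Every pladienolide B sample was below every DMSO sample. The log2 fold change was -0.33 (SE 0.07, adjusted p = 0.0012 by limma). IFNAR1, the other subunit, had 1706, 1561 and 1626 adjusted reads in DMSO and 1812, 1802 and 1648 in pladienolide B. The groups overlap, and the log2 fold change of 0.10 (95% interval -0.01 to 0.22) had an adjusted p of 0.12. The difference between the 2 changes was not tested. IFNAR1 and IFNAR2 both lie on chromosome 21, at chr21:33324395-33359864 and chr21:33229938-33265664.

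Among the 5 transcription factors, 1 rose and 2 fell. STAT2, the subunit of ISGF3 that carries its activation domain, had 909, 827 and 970 adjusted reads in DMSO and 952, 1032 and 1060 in pladienolide B, so that DMSO replicate 3 lay above pladienolide B replicate 1. Its log2 fold change was 0.17 (SE 0.07, adjusted p = 0.045 by limma), and this call was lost in turn without DMSO replicate 1, DMSO replicate 2, pladienolide B replicate 2 and pladienolide B replicate 3, with adjusted p-values of 0.075, 0.15, 0.13 and 0.17. IRF9, the DNA-binding subunit of ISGF3, had 714, 704 and 815 adjusted reads in DMSO and 774, 696 and 809 in pladienolide B, which overlap. The interval of its log2 fold change ran from -0.13 to 0.19. IRF7, the factor that amplifies the production of interferon alpha, had 332, 295 and 313 adjusted reads in DMSO and 191, 195 and 188 in pladienolide B. All pladienolide B values lay far below the lowest DMSO value, and the log2 fold change was -0.71 (SE 0.10, adjusted p = 1.4e-05). IRF2, a repressor that competes with IRF1 for its sites, fell to 81.3% of DMSO (log2 fold change -0.30, adjusted p = 0.0093). For IRF1 the log2 fold change was 0.16, with an adjusted p of 0.15 that became 0.017 without pladienolide B replicate 2.

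The proteins that act on viral RNA held the largest changes in both directions. OAS3 and OASL belong to the oligoadenylate synthetase family, whose active members sense double-stranded RNA and switch on RNase L, while OASL lacks synthetase activity. OAS3, at chr12:112938463-112973251, had 64.1, 53.4 and 59.6 adjusted reads in DMSO and 21.9, 20.4 and 26.1 in pladienolide B. There was no overlap between the groups, and the log2 fold change was -1.34 (SE 0.23, adjusted p = 0.00012 by limma). OASL, at chr12:121018882-121039242, had 17.7, 33.2 and 24.6 adjusted reads in DMSO and 51.2, 72.1 and 46.1 in pladienolide B. Here all pladienolide B samples lay above the highest DMSO sample. The log2 fold change of OASL was 1.15 (SE 0.27, adjusted p = 0.0019), and without single samples it ranged from 0.93 to 1.37. Both genes had few reads, which makes their fold changes less precise than those of the abundant members. OAS1 and OAS2, which flank OAS3 on chromosome 12, were too low to test.

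ISG20, an exonuclease that degrades single-stranded RNA, had 113, 108 and 129 adjusted reads in DMSO and 73.1, 83.1 and 79.2 in pladienolide B. The highest pladienolide B value was below the lowest DMSO value, and the log2 fold change was -0.56 (SE 0.15, adjusted p = 0.005). The IFIT proteins bind the 5′ ends of foreign RNA, and their 4 genes form a cluster on chromosome 10. IFIT2 had 67.8, 65.5 and 72.9 adjusted reads in DMSO and 36.6, 51 and 43.1 in pladienolide B. The groups were separate, with a log2 fold change of -0.66 (SE 0.20, adjusted p = 0.011), and the adjusted p was 0.051 without pladienolide B replicate 1. IFIT1 had 125, 151 and 132 adjusted reads in DMSO and 109, 83.6 and 102 in pladienolide B. This gene was also lower in every pladienolide B sample (log2 fold change -0.47, SE 0.15, adjusted p = 0.015), and its call was lost without DMSO replicate 2 (adjusted p = 0.056) and without pladienolide B replicate 2 (0.073).

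IFIT3, which stabilizes IFIT1 on RNA, stood on the other side of 0. It had 225, 221 and 169 adjusted reads in DMSO and 280, 232 and 239 in pladienolide B, and the groups did not overlap. The adjusted p of its log2 fold change, 0.29 (95% interval 0.03 to 0.56), was 0.06. It passed the threshold without DMSO replicate 1 (0.037) and without DMSO replicate 2 (0.031). IFIT5, at the end of the cluster, had an interval of -0.26 to 0.06, which covers 0.

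The membrane proteins that hold back virus particles at entry or exit included the most abundant members. Per kilobase of transcript, IFITM3 had the highest level in DMSO, 4290 adjusted reads, followed by IFITM2 with 2800, BST2 with 2240, the secreted LGALS3BP with 2160 and IFI27 with 1040. Of these 5, only IFI27 passed the test. IFITM3 and IFITM2 block the fusion of virus and endosome membranes. IFITM3 had 2540, 2756 and 2570 adjusted reads in DMSO and 2714, 2587 and 2881 in pladienolide B. IFITM2 had 2788, 2988 and 2680 in DMSO and 3043, 2721 and 2928 in pladienolide B. The groups overlapped for both, and the intervals of the log2 fold changes were -0.05 to 0.16 and -0.07 to 0.15. BST2, the tetherin that keeps budding virions on the cell, had 2126, 2376 and 2229 adjusted reads in DMSO and 2195, 2045 and 2230 in pladienolide B. Its interval, -0.17 to 0.05, covers 0.

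IFITM1, found at the cell surface, was the low member of its family. It had 41.4, 35.3 and 52.2 adjusted reads in DMSO and 91.3, 44.4 and 72.2 in pladienolide B. The groups overlap, because pladienolide B replicate 2 lay below DMSO replicate 3. The log2 fold change was 0.64 (SE 0.25) with an adjusted p of 0.045 by limma. That call did not hold without DMSO replicate 1 (0.084), DMSO replicate 2 (0.12), pladienolide B replicate 1 (0.24) or pladienolide B replicate 3 (0.13). The sequences of IFITM1, IFITM2 and IFITM3 are closely related, and reads that match more than 1 of them could be split differently by another counting method.

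Of the interferon-induced GTPases, GBP1 and GBP2 fell and the others did not pass the test. GBP2, a guanylate-binding protein that attacks pathogen-containing vacuoles, had 142, 158 and 147 adjusted reads in DMSO and 89.4, 76.8 and 61.1 in pladienolide B. About 50.8% of the DMSO level remained, and the log2 fold change was -0.98 (SE 0.16, adjusted p = 7.1e-05). A non-coding gene on the opposite strand of GBP2 had a level of 14.3% of that of GBP2. It had means of 20.5 adjusted reads in DMSO and 11.8 in pladienolide B (log2 fold change -0.86, adjusted p = 0.082 by limma). Whether reads were counted by strand is not given in the sources used here, and an effect of this on GBP2 was not tested. GBP1, of the same family, had 443, 574 and 421 adjusted reads in DMSO and 279, 290 and 261 in pladienolide B. DMSO replicate 2 was the highest sample, and without it the log2 fold change was -0.64, against -0.78 with all samples (SE 0.11, adjusted p = 1.3e-05). GBP3, next to them on chromosome 1, had an interval of -0.26 to 0.07. MX1 and MX2 are dynamin-like GTPases that trap viral nucleocapsids. MX1 had 115, 83.7 and 88.7 adjusted reads in DMSO and 109, 111 and 107 in pladienolide B, and MX2 had 1381 ± 69.7 and 1271 ± 113 (SD, n = 3). Their log2 fold changes were 0.20 and -0.12, with adjusted p-values of 0.31 and 0.13 by limma. Without pladienolide B replicate 3 the adjusted p of MX2 was 0.04.

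In the ISG15 system, ISG15 is the ubiquitin-like protein, UBE2L6 its conjugating enzyme and HERC5 its main human ligase. HERC6 is the neighbour and relative of HERC5. HERC6 had 230, 246 and 215 adjusted reads in DMSO and 149, 147 and 135 in pladienolide B. The groups were well apart, with a log2 fold change of -0.67 (SE 0.11, adjusted p = 9.9e-05). UBE2L6 fell to 84.7% of DMSO (log2 fold change -0.24, adjusted p = 0.017), and this was lost without DMSO replicate 3 (0.06) and without pladienolide B replicate 3 (0.076). ISG15 itself had 274, 336 and 274 adjusted reads in DMSO and 350, 329 and 289 in pladienolide B, which overlap. The interval of its log2 fold change was -0.09 to 0.35. For HERC5 the interval was -0.06 to 0.26. A non-coding gene that overlaps HERC5 and HERC6 on the opposite strand was at 19.6% of the level of HERC6. The log2 fold change of this gene was -0.56 (adjusted p = 0.076 by limma).

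**Figure D3:**
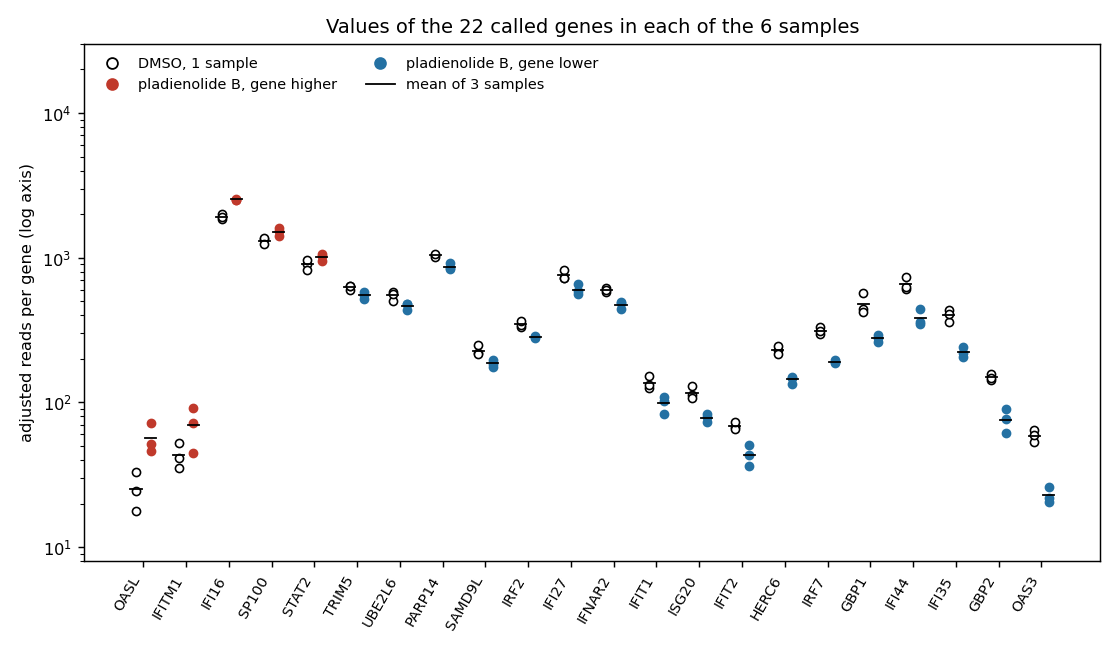
Adjusted reads (y axis, log scale) of the 22 members that passed the test (x axis, from the largest rise to the largest fall), 1 point per sample, with open circles for DMSO, filled circles for pladienolide B and bars for the means of 3 samples. The groups overlap for IFITM1 and STAT2 and are separate for the other genes, from OASL, with 17.7 to 33.2 with DMSO and 46.1 to 72.1 with pladienolide B, to OAS3, with 53.4 to 64.1 and 20.4 to 26.1.

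The IFI group contained 3 falls and 1 rise among 5 tested genes. IFI35, which binds NMI and takes part in inflammatory signalling, had 362, 437 and 406 adjusted reads in DMSO and 206, 219 and 243 in pladienolide B. The drop to 55.3% of DMSO was larger than the spread in either group (log2 fold change -0.85, SE 0.10, adjusted p = 2.6e-06). IFI44, a cytoplasmic protein, had 606, 738 and 624 adjusted reads in DMSO and 357, 444 and 346 in pladienolide B. It was lower in all pladienolide B samples, by a log2 fold change of -0.78 (SE 0.10, adjusted p = 5.5e-06). IFI27, a mitochondrial protein, had 723, 817 and 722 adjusted reads in DMSO and 559, 654 and 589 in pladienolide B. Those values do not overlap, and the log2 fold change was -0.33 (SE 0.08, adjusted p = 0.0017).

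IFI16, a sensor of DNA in the nucleus and cytosol, was the rise with the lowest adjusted p. It had 2002, 1861 and 1905 adjusted reads in DMSO and 2524, 2516 and 2548 in pladienolide B. Every pladienolide B sample exceeded the highest DMSO sample, with a log2 fold change of 0.40 (SE 0.05, adjusted p = 2.4e-06). IFI6, an inhibitor of apoptosis, had a log2 fold change of 0.21 (adjusted p = 0.081). SP100, a component of nuclear bodies that silences viral DNA, had 1343, 1360 and 1235 adjusted reads in DMSO and 1593, 1409 and 1537 in pladienolide B. The samples of the 2 groups were separate (log2 fold change 0.20, SE 0.06, adjusted p = 0.0085), and the adjusted p was 0.054 without DMSO replicate 3 and 0.058 without pladienolide B replicate 1. For SP110, a relative of SP100, the log2 fold change was 0 to 2 decimals, with an interval of -0.26 to 0.25.

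Smaller falls were found in 3 further members. SAMD9L, a restriction factor for poxviruses, fell to 81.5% of DMSO (adjusted p = 0.034), but not without DMSO replicate 2 (0.12), pladienolide B replicate 2 (0.11) or pladienolide B replicate 3 (0.072). PARP14, an ADP-ribosyltransferase, fell to 83.7% (adjusted p = 0.0018). TRIM5, a factor that binds retroviral capsids, fell to 87.4% (adjusted p = 0.028), and this was lost without DMSO replicate 3 (0.086), pladienolide B replicate 1 (0.065) or pladienolide B replicate 3 (0.11). TRIM5 overlaps TRIM6, TRIM34 and a gene joining both on the opposite strand, whose levels were 12.2% to 21.7% of its own. Their log2 fold changes were 0.36, 0.18 and 0.22, with adjusted p-values of 0.036, 0.54 and 0.35 by limma. The other members of these groups, SAMD9, PARP9, DTX3L, TRIM21, TRIM25, had log2 fold changes between -0.11 and 0.07, and none passed the test. PARP9 and its partner DTX3L overlap at their starts on opposite strands. LGALS3BP, a secreted glycoprotein, had 4733, 4710 and 4817 adjusted reads in DMSO and 4303, 4580 and 4730 in pladienolide B. These ranges overlap, and the interval of the log2 fold change was -0.16 to 0.02.

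**Figure D4:**
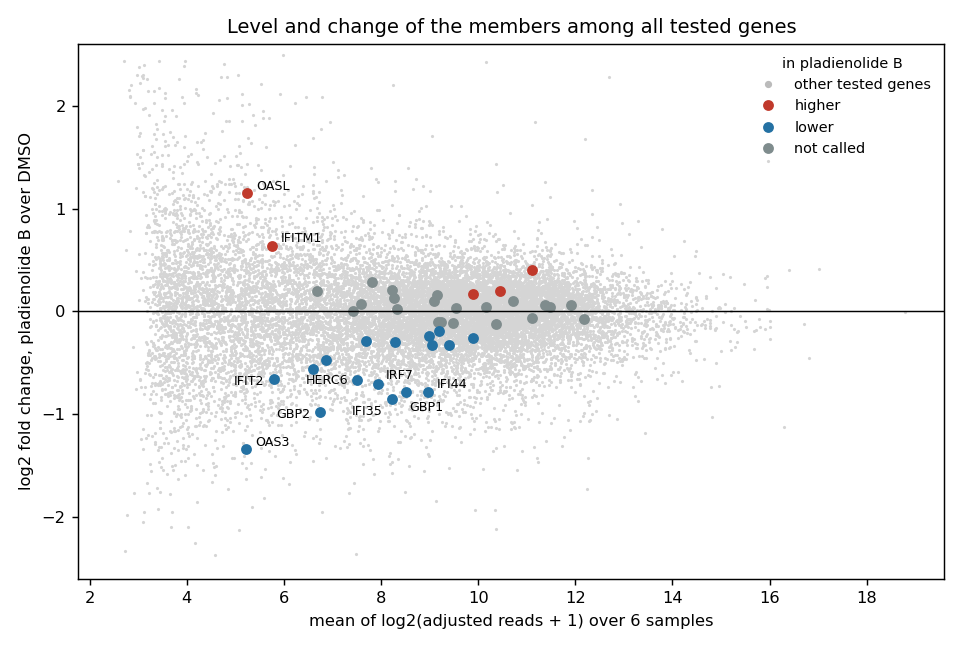
Mean of log2(adjusted reads + 1) over the 6 samples (x axis) and change in pladienolide B relative to DMSO on the log2 scale (y axis) for tested genes (small grey points) and the 43 tested members (large points, coloured by outcome). The members lie within the cloud of all genes, with OAS3 and OASL at its low-level side, and 15 other genes lie beyond the y axis.

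The 8 members that were too low to test had at most 6 reads in any sample. RSAD2, which encodes viperin, had 0 reads in all 6 samples. Its neighbour CMPK2, a nucleotide kinase, had 1 read in pladienolide B replicate 1 and 0 in the others, and XAF1 had 1 read in DMSO replicate 2 and 0 in the others. A count of 0 in a sample allows for up to 3 reads by counting error. The chemokine gene CXCL10 had 3, 3 and 5 reads in DMSO and 4, 1 and 1 in pladienolide B. CCL5, another chemokine gene, had 2, 2 and 0 reads in DMSO and 0 in each pladienolide B sample. OAS1 had 1, 0 and 1 reads in DMSO and 1, 1 and 0 in pladienolide B. For OAS2 the reads were 0, 0 and 1 in DMSO and 2, 2 and 2 in pladienolide B, and for IFI44L 1, 2 and 5 in DMSO and 5, 6 and 4 in pladienolide B. At this depth no difference could be tested for these genes. IFI44L is the neighbour of IFI44 on chromosome 1, and the level of IFI44, 346 to 738 adjusted reads over the 6 samples, was far above that of IFI44L.

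No transcript of an interferon was measured at a level that could be tested. Of 22 interferon genes, 10 had 0 reads in all samples, among them IFNB1 and IFNG, and the highest count in any sample was 6. That count was of IFNE, the interferon of epithelia of the reproductive tract, which had 3, 2 and 1 reads in DMSO and 4, 6 and 6 in pladienolide B. Several interferon alpha genes are nearly identical, so reads could be assigned to the wrong copy.

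Of 12 other receptor and JAK-STAT genes, 11 were tested, and 3 rose and 2 fell. The share called was 45.5%, near the 47.6% of all tested genes. IFNLR1, the receptor for interferon lambda, rose from 84.5 ± 3.67 to 143 ± 19.2 adjusted reads (SD, n = 3), or by 0.75 on the log2 scale (adjusted p = 0.00045 by limma). IFNGR1, for interferon gamma, rose by 0.17 on the log2 scale (adjusted p = 0.032). JAK2, its kinase, fell from 384 ± 31 to 269 ± 6.47 (log2 fold change -0.51, adjusted p = 0.00018). TYK2, which sits on IFNAR1, fell from 2668 ± 91 to 2273 ± 99.7 (log2 fold change -0.23, adjusted p = 0.00076). JAK1 had 8091 ± 22.2 and 7666 ± 12.1 adjusted reads (log2 fold change -0.08, adjusted p = 0.096).

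The 14 negative regulators of the pathway were all tested, and 2 rose and 0 fell by limma. The share called, 14.3%, was below the 47.6% of all tested genes (22.4% higher and 25.2% lower). PTPN1, a phosphatase that acts on TYK2 and JAK2, rose from 4082 ± 43.2 to 5553 ± 67.2 adjusted reads (SD, n = 3), or by 0.44 on the log2 scale (adjusted p = 1.1e-07). PTPN2, a phosphatase of JAK1, rose by 0.16 (adjusted p = 0.018). USP18, which removes ISG15 and blocks IFNAR2, had a mean of 163 ± 16.9 adjusted reads in DMSO and 175 ± 21.1 in pladienolide B, with an adjusted p of 0.54. Of 57 further ISGs that are not members, 46 were tested, and 13 rose and 16 fell, with a median log2 fold change of 0. Of those tested 63% were called, 28.3% higher and 34.8% lower. The largest rises were those of SLFN5, of the Schlafen family, from 1004 ± 81.4 to 1682 ± 96.3 adjusted reads (log2 fold change 0.75, adjusted p = 7.5e-08), and ZNFX1, a helicase that senses viral RNA, from 1682 ± 93.4 to 2356 ± 134 (0.49, adjusted p = 1.7e-06). DDX60, a helicase that promotes RNA sensing, fell most, from 269 ± 15.7 to 147 ± 19.6 (log2 fold change -0.88, adjusted p = 1.1e-05). APOBEC3B, a DNA cytosine deaminase, fell from 616 ± 40.9 to 371 ± 29.8 (-0.73, adjusted p = 1.5e-06), and APOBEC3 genes are similar enough that their reads may be divided uncertainly.

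The members were also compared by the structure of their main transcript in GENCODE, since the drug acts on splicing. The median number of exons was 9 in members that fell, 12 in those that rose and 7 in those that did not pass the test, against 10, 9 and 7 for all tested genes with a canonical transcript. Spearman's correlation between exon number and log2 fold change was -0.04 over the 43 members and -0.08 over 15059 genes. It is across genes, which are not independent replicates, and so describes these samples only. The 4 IFIT genes all have 2 exons, and their log2 fold changes ran from -0.66 to 0.29. IFIT1 and IFIT2 fell, while IFIT3, at the upper end, and IFIT5 did not pass the test.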

How the data were processed

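RNA from OVCAR8 cells (DMSO or 2 nM pladienolide B for 72 h, 3 samples each) was isolated with Magzol, enriched for poly(A) RNA and sequenced on Illumina libraries. The methods state trimming, alignment to hg38 with hisat2 and testing with DESeq2, whereas the submitters' processing notes name hg19, HISAT2, HTSeq 0.12.4 and DESeq2. Positions in the table overlapped GRCh38 for 26983 of the 26990 symbols shared with GENCODE 44, and for 51 of 51 members. Gene models and strand handling are not given in the sources used here.

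The value the authors deposited per gene and sample is a signal: reads adjusted to a common library size, which is not the plain total of reads. It equals the quantile-adjusted pseudo-counts that edgeR computes (dispersion 0.0027 for all genes), and inverting the adjustment returned whole reads for 100% of 148143 values above 0, to within 1e-04. The deposited log2 fold change, p-value and q-value columns hold the authors' own comparison and were not used.

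Adjusted values were tested as log2(value + 1) with limma 3.58.1, with a variance trend, two-sided, with Benjamini-Hochberg adjustment over the 16178 genes kept by filterByExpr of edgeR 4.0.16 (minimum count 10, total 15). Fold changes are on this scale, which understates those of genes with few reads. Since the values were not raw counts, edgeR's quasi-likelihood test and DESeq2 1.42.0 on the recovered reads were alternatives (edgeR called 7738 genes). Other alternatives were RLE factors, no filter, a mean of 50, pseudocounts of 0.1 and 5, no variance trend, the replicate number as a block and leaving out each sample. The edgeR fit with the block was added after the data were seen. Tests were checked on simulated data with the same dispersion for all genes and far fewer changed genes than were called here. That setting is simpler than these data. The depth of 22621338 to 26130882 reads leaves members with fewer than about 10 reads untested.

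The members and lists were chosen with earlier results of these data known. All members were accounted for, with values per sample for the 10 largest rises and 10 largest falls past the threshold (5 rose), the 5 highest levels per length in DMSO, and IFNAR1, IFNAR2, STAT2, IRF9 and IRF7. From the other lists the 2 largest rises and falls and JAK1, TYK2, IFNB1 and USP18 were named, and SF3B1 as the drug's target. Another gene of that rule is not reported here. ISG15, IFIT3, SP110 and other members outside this rule are given to complete their groups. Promoter windows are RefSeq's (GRCh38.p14).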

Additional observations from a re-analysis of the deposited data

How the results depend on the processing

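Over the alternatives the number of members called lower stayed between 15 and 17, and the number of genes called among all tested between 6381 and 7855. The number of members called higher was 5, and it was 4 with DESeq2, 4 with a mean of at least 50, 3 with no filter on low values and 2 in limma without the variance trend. The last 2 settings lost IFITM1 and STAT2, and limma without the trend also SP100. Without each sample in turn, members called higher ranged from 3 to 5, members called lower from 15 to 17, the median log2 fold change of the members from -0.08 to -0.03, and the genes called from 6580 to 7855. Of the 17 falls 12 kept their call in all 6 fits that left out a sample, as did 2 of the 5 rises, OASL and IFI16. Under an alternative, 636 of 686 single values kept their direction and side of the threshold. The sign of members close to 0 changed. SP110, at 0, was 0.01 with edgeR (TMM, RLE or TMM with the replicate block) and with DESeq2. Without single samples SP110 ran from -0.06 to 0.08, IRF9 from -0.02 to 0.10, PARP9 from -0.03 to 0.11 and SAMD9 from -0.01 to 0.13, none past the threshold. DESeq2 lost the calls of STAT2, SAMD9L and TRIM5 (adjusted p 0.053, 0.077 and 0.07). The cause of these shifts was not tested. Leaving out a sample also lowers the number of samples, and dropping the filter raises the number of genes tested.

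No pairing by replicate number was seen: the correlation of deviations from the group means was -0.02, -0.02 and 0 for equal numbers. It was -0.04 to 0.05 for unequal numbers. With 3 samples per group these values cannot show whether the cultures were paired. With the replicate number as a block, limma called 6 members higher and 16 lower and 7349 genes in all (IFIT3 gained, adjusted p 0.047; SAMD9L lost, 0.051), and edgeR with the block also 6 and 16, with 7428 genes. A mean of at least 50 left OAS3 and OASL untested. Depth limits the 8 untested members, and the tests of OAS3, OASL, IFITM1 and IFIT2 rest on fewer than 100 adjusted reads per sample.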
